A study of Mus musculus with 6 samples.

Results

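The C-type lectin receptors were taken as every probe, control probes left out, whose gene name in the files is Clec followed by a number, or Cd209 followed by a letter from a to g. This gave 60 of the 56605 probes on the array and 39 of the 37074 gene names. Of these 39 genes, 24 lie on chromosome 6 and 10 on chromosome 8. The rule goes by name, so it also takes in secreted proteins (Clec3a, Clec3b, Clec11a, Clec18a) and Clec16a, an endosomal protein of autophagy that is no surface lectin. Tested were probes that stood well above background on the 2 arrays of some group, in all 43 probes of 31 genes. The other 8 genes (Cd209b, Cd209f, Clec12b, Clec14a, Clec1a, Clec2h, Clec3a and Clec4f) are accounted for at the end.

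The cells were grown from the bone marrow of female C57BL/6J mice aged 6 to 8 weeks with granulocyte-macrophage colony-stimulating factor (GM-CSF), a cytokine that drives myeloid growth. 6G- BM-MDSC were myeloid-derived suppressor cells grown from marrow whose Ly-6G+ cells, mostly neutrophils and their late precursors, had been pulled out with magnetic beads. MDSC (conv.) were grown from whole marrow, and the label says that dendritic cells were among them. Both had 40 ng/mL GM-CSF for 4 days, whereas DCs, the reference dendritic cells, had 20 ng/mL for 8 days in dishes not treated for tissue culture. No sort between culture and RNA extraction is described for these samples, and each group has 2 arrays, 6 in all. Whether the 2 replicates of a group came from separate animals or cultures is not given in the sources used here, so p-values cover only the spread between these samples. Both MDSC groups lay in the first row of arrays on the slide and DCs in the second. The difference from DCs therefore holds cell type, GM-CSF dose, culture time, dish and array row at once, and these cannot be told apart. Both comparisons with DCs use the same 2 DC arrays and are not independent of each other.

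C-type lectin receptors bind sugars, lipids or proteins of microbes and damaged cells through a shared fold, the C-type lectin-like domain. Some activate the cell: Mincle (Clec4e), its partner Clec4d, Dectin-2 (Clec4n) and Clec5a signal through the adaptors Fcer1g or Tyrobp, while Dectin-1 (Clec7a), CLEC-2 (Clec1b) and DNGR-1 (Clec9a) carry a signalling motif of their own, and all of these lead to the kinase Syk. Others, such as Clec12a and the DCIR receptors Clec4a2 and Clec4a4, hold an inhibitory motif that recruits phosphatases. The Cd209 genes are the mouse relatives of human DC-SIGN, an uptake receptor of dendritic cells, and the Clec2 genes encode ligands that natural killer cells and other leukocytes read through Klrb1 receptors.

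The sequences below are the 250 bases upstream of the start of 6 genes with higher signal than DCs in both MDSC groups. They were taken because these members moved together and because 5 of the 6 hold the core GAGGAA, the letters to which the myeloid factor PU.1 binds. That share thus follows in part from the choice. Of the genes higher in both MDSC groups but not shown, Clec18a holds the core, while Clec1b and Clec9a hold none of the motifs searched. They are RefSeq sequences on GRCm38.p6, 5′ to 3′ on the strand of the gene, and capitals mark matches on either strand. Clec4b2 (chr6:123172773-123173022, plus strand) and Clec4d (chr6:123261857-123262106, plus strand) hold 1 GAGGAA each. Clec4e (chr6:123289872-123290121, minus strand) holds 2, with 1 match to TTGCNNAA, the letters of a C/EBP site. Clec5a (chr6:40585806-40586055, minus strand) holds 2 GAGGAA. Clec12a (chr6:129349994-129350243, plus strand) holds 2, with 1 TTGCNNAA and 1 TGANTCA, the letters of an AP-1 site. Cd209e (chr8:3854287-3854536, minus strand) holds none of these and 1 GGGANNNCC, a form of the NF-kB site.
Clec4b2: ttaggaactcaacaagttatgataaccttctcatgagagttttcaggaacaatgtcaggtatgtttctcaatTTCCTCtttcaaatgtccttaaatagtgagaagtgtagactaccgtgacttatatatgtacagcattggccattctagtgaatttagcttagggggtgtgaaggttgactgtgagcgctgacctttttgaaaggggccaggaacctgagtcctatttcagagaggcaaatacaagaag
Clec4d: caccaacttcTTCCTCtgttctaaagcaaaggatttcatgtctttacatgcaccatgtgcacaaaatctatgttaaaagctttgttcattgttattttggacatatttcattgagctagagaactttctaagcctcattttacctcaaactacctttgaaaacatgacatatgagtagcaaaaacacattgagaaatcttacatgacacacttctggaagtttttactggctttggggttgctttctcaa
Clec4e: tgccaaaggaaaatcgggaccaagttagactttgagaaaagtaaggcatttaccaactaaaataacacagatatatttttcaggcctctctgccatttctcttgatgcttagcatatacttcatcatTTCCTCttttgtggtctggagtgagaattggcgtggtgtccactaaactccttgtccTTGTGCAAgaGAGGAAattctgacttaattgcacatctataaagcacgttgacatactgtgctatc
Clec5a: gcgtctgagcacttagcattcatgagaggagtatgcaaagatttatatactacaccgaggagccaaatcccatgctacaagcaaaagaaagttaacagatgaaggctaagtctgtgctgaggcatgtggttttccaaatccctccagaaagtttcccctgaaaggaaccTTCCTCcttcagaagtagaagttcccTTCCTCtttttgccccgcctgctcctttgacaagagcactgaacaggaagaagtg
Clec12a: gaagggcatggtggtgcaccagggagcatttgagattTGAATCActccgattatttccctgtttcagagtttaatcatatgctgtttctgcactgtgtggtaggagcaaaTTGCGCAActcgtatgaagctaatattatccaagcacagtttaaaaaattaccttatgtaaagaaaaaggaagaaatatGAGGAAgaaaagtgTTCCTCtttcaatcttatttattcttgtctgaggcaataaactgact
Cd209e: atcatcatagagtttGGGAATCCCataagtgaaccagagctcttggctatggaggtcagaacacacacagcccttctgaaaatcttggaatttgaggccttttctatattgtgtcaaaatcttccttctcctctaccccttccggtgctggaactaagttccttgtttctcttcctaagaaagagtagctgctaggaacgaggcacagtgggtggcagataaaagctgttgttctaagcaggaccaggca

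Upstream sequences of 32 of the 39 genes were matched by name. GAGGAA on either strand was in 6 of the 9 genes higher in both MDSC groups (the 5 above and Clec18a) and in 4 of the 8 matched genes lower in both (Cd209d, Clec11a, Clec16a and Clec2l), against 23.3% of all 32851 upstream sequences of this length. TTGCNNAA was in 2 of 9 and 2 of 8, against 9.56% of all. TGANTCA was in 2 of 9 and 0 of 8, against 6.75%, and GGGANNNCC in 1 of 9 and 0 of 8, against 15.8%. GAAA followed by any 2 bases and GAAA again, the letters of an interferon regulatory factor site, was in 0 of 9 and in 1 of 8 (Clec2d), against 2.98%. No match shown overlaps a match to another motif. A match is a run of letters and not a bound site.

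All values are log2 signals relative to the 75th percentile of the same array, so that 0 is the brightness of the probe at that percentile. That percentile lay between 560.188 and 633.257 intensity units on the 6 arrays, 55.6 to 59.9% of probes were well above background, and no spot was saturated. Levels of different genes are not compared, because probes differ in brightness. The test was limma on the 6 arrays together, and p was adjusted by Benjamini-Hochberg over 21860 genes. Of all genes, 15% were higher than in DCs and 17.8% lower in 6G- BM-MDSC, and 13.4% and 15.8% in MDSC (conv.). The counts of each marker list are to be read beside these shares. Of 12 neutrophil markers, 11 were higher in each MDSC group than in DCs. Ly6g, the gene of the depleted surface antigen, was at 1.71 and 1.86 in 6G- BM-MDSC, 1.95 and 1.96 in MDSC (conv.) and -1.94 and -2.19 in DCs, so its RNA was present after culture in the depleted group. Of 10 dendritic cell markers, 9 were lower in each MDSC group than in DCs. The other, Flt3, was higher in 6G- BM-MDSC (0.50, limma adjusted p = 0.016) and not called in MDSC (conv.) (0.20). Of 8 macrophage markers, 6 were lower than in DCs in 6G- BM-MDSC and 7 in MDSC (conv.), among them the complement gene C1qa (-1.08 and -0.54 in 6G- BM-MDSC, -0.74 and -0.73 in MDSC (conv.), 3.18 and 3.56 in DCs). Of the other marker lists, all 5 basophil and mast cell markers and 4 of 6 B cell markers were higher in each MDSC group with 0 lower. Counts of higher and lower were 3 and 0 of 6 monocyte markers for 6G- BM-MDSC and 2 and 1 for MDSC (conv.), 2 and 3 of 5 plasmacytoid dendritic cell markers for 6G- BM-MDSC and 2 and 1 for MDSC (conv.), and, in each MDSC group, 2 and 1 of 5 T cell, 1 and 1 of 2 NK cell, 1 and 0 of 2 endothelial and 1 and 0 of 5 stromal markers. Their part in any difference below was not tested, and in RNA from whole cultures fewer cells of a type cannot be told apart from less RNA per cell.

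Set against DCs, 11 of the 31 tested genes were higher in 6G- BM-MDSC (35.5%, where 15% of all genes were) and 10 were lower (32.3%, against 17.8% of all genes). In MDSC (conv.), 9 were higher (29%, against 13.4%) and 10 were lower (32.3%, against 15.8%). The median difference over the 31 genes was -0.11 in 6G- BM-MDSC and 0.07 in MDSC (conv.), close to the -0.04 and -0.03 of all genes, since members moved in both directions. Of the 31 genes, 13 and 14 differed 2-fold or more, where 11.3% and 10.4% of all genes did, and the median size was 0.85 and 0.82 on the log2 scale, against 0.29 and 0.27. For the account below the members are grouped as 9 genes higher in both MDSC groups and 10 lower in both, which is no result of its own since both comparisons share the DC arrays. The 11 include Clec4a2, which had no DC array well above background. Clec4a1 and Clec4a2 had a call for 6G- BM-MDSC only, and neither was called between the MDSC groups.

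**Figure D1:**
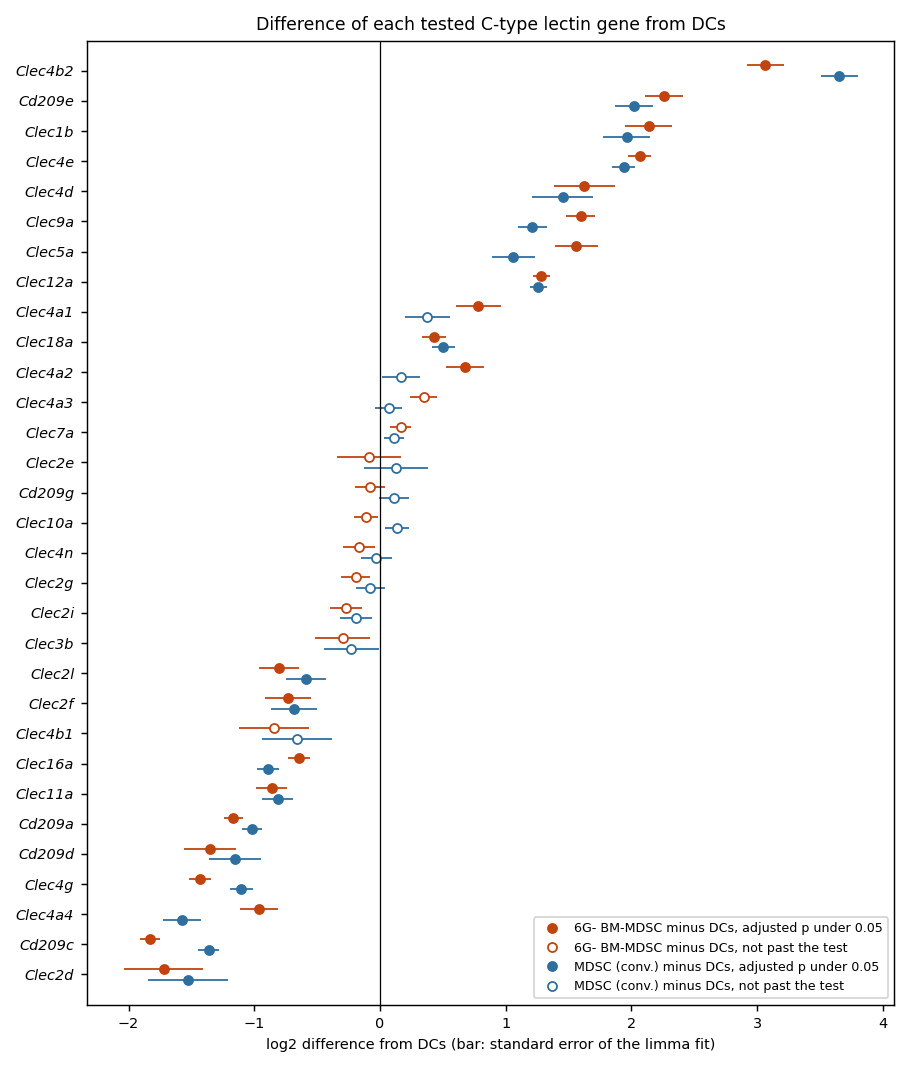
Log2 difference of each of the 31 tested genes from DCs, for 6G- BM-MDSC (orange) and MDSC (conv.) (blue). Points are limma estimates, bars are standard errors, and filled points passed an adjusted p of 0.05. The 2 groups lie near each other in nearly every row, from 3.07 and 3.65 for Clec4b2 at the top to -1.72 and -1.53 for Clec2d at the bottom.

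Among the activating receptors that signal through an adaptor, Clec4e, Clec4d and Clec5a were higher than in DCs in both MDSC groups, while Clec4n did not pass. Clec4e (Mincle), which senses mycobacterial glycolipid and dead cells, was at 4.39 and 4.43 in 6G- BM-MDSC, 4.33 and 4.24 in MDSC (conv.) and 2.26 and 2.43 in DCs. Every MDSC array lay well above both DC arrays. The difference from DCs was 2.06 ± 0.09 in 6G- BM-MDSC (SE, n = 2 each, 4.18-fold, limma adjusted p = 0.00037) and 1.94 ± 0.09 in MDSC (conv.) (3.83-fold, adjusted p = 0.00047). Clec4d, which pairs with Clec4e and shares its ligand, was at 5.51 and 6.11 in 6G- BM-MDSC, 5.47 and 5.80 in MDSC (conv.) and 4.05 and 4.33 in DCs. Both DC arrays lay below all MDSC arrays, while the arrays of the MDSC groups overlapped. Replicates of Clec4d stood farther apart than those of Clec4e. It differed from DCs by 1.62 ± 0.24 in 6G- BM-MDSC (adjusted p = 0.0094) and by 1.45 ± 0.24 in MDSC (conv.) (adjusted p = 0.014). The second of these calls was lost when MDSC (conv.) replicate 2 (1.29, adjusted p = 0.076) or DCs replicate 1 (1.31, adjusted p = 0.064) was left out.

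Clec5a, a receptor of neutrophils and monocytes that signals through Tyrobp, was at 4.76 and 4.95 in 6G- BM-MDSC, 4.14 and 4.57 in MDSC (conv.) and 3.24 and 3.35 in DCs. On this probe, the brightest of 3, the groups lay in this order with no overlap, but on the other 2 probes the arrays of the MDSC groups overlapped. The difference from DCs was 1.56 ± 0.17 (2.95-fold, limma adjusted p = 0.0038) in 6G- BM-MDSC and 1.06 ± 0.17 (2.08-fold, adjusted p = 0.012) in MDSC (conv.). Without DCs replicate 1 the MDSC (conv.) call was lost (1.0, adjusted p = 0.059). Its 3 probes all passed against DCs, with differences between 1.34 and 1.56 in 6G- BM-MDSC and between 1.06 and 1.32 in MDSC (conv.).

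Clec4b2 had the widest difference of all tested members. It is a relative of Clec4b1, the activating receptor DCAR, in the same cluster. It was at 0.11 and 0.35 in 6G- BM-MDSC, 0.80 and 0.84 in MDSC (conv.) and -2.68 and -3.00 in DCs, where it was still above background on both arrays. This was 8.37-fold above DCs in 6G- BM-MDSC (3.07 ± 0.14, limma adjusted p = 0.00044) and 12.6-fold in MDSC (conv.) (3.65 ± 0.14, adjusted p = 0.00033). A second probe gave 3.17 and 3.65, both past the test over probes. With the mean of the gene's probes in place of the brightest, the differences were 2.35 and 2.93, and with normexp background correction 2.42 and 2.94, all called. Another, dim probe was above background on 1 array of 6G- BM-MDSC, 2 of MDSC (conv.) and 0 of DCs, and gave only a bound for MDSC (conv.), at least 1.1-fold higher, with no call (adjusted p over probes = 0.13). A bound sets the mean of the brighter group against the dimmest signal that still counted as above background on the arrays of the other.

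Dectin-2 and Dectin-1 did not pass. Dectin-2 (Clec4n), which binds fungal mannan, was at 7.98 and 7.65 in 6G- BM-MDSC, 7.94 and 7.96 in MDSC (conv.) and 7.94 and 8.02 in DCs, a difference of -0.17 ± 0.12 and -0.03 ± 0.12. Dectin-1 (Clec7a), the receptor for fungal beta-glucan, was at 6.29 and 6.25 in 6G- BM-MDSC, 6.16 and 6.27 in MDSC (conv.) and 6.06 and 6.15 in DCs, and differed by 0.16 ± 0.08 and 0.11 ± 0.08 (limma adjusted p = 0.19 and 0.36). A second, exon-spanning Clec7a probe gave -0.01 and -0.10.

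Clec4b1 was read by 2 coding probes, and both are printed here 5′ to 3′ because the size of its difference depends on which is used. The first lies in 1 exon (mm9, chr6:123021454-123021513, plus strand) and the second spans exons between chr6:123000666 and chr6:123018461.
Clec4b1 probe 1: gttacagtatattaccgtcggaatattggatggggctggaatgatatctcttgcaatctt
Clec4b1 probe 2: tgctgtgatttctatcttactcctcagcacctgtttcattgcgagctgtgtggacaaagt
The first was at 5.14 and 4.31 in 6G- BM-MDSC, 5.0 and 4.83 in MDSC (conv.) and 5.62 and 5.53 in DCs, and the second at 4.20 and 4.23, 4.17 and 4.21, and 4.39 and 4.34 in the same order of groups. Both were below DCs in every MDSC array, and neither passed. The first probe was lower by 0.85 ± 0.28 and 0.66 ± 0.28 on the log2 scale (limma adjusted p = 0.074 and 0.14). The second was lower by 0.15 and 0.18 (limma adjusted p over probes = 0.17 and 0.13).

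Of the receptors with their own activating motif, Clec1b and Clec9a were higher in MDSC. Clec1b, the podoplanin receptor that is abundant on platelets, was at 1.07 and 1.40 in 6G- BM-MDSC, 0.89 and 1.24 in MDSC (conv.) and -1.04 and -0.76 in DCs. It was 4.40-fold (2.14 ± 0.19, limma adjusted p = 0.0021) and 3.90-fold (1.96 ± 0.19, adjusted p = 0.0028) above DCs. Of 7 megakaryocyte and platelet markers, 6 were higher than in DCs in each MDSC group, with a median difference of 2.38 and 2.28. Their summed linear signal was 40.9 and 42.8 in 6G- BM-MDSC, 34.3 and 39.8 in MDSC (conv.) and 8.70 and 12.7 in DCs, in units of the 75th percentile. Platelet marker Gp9 was at 0.50 and 0.46, 0.41 and 0.58, and -5.33 and -3.44 in these groups, and the part of such cells in the Clec1b difference was not tested.

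Clec9a senses the actin of dead cells and is best known as a mark of cross-presenting dendritic cells (cDC1). Its RNA lay above that of DCs in both MDSC groups: -1.33 and -1.13 in 6G- BM-MDSC, -1.71 and -1.51 in MDSC (conv.) and -2.76 and -2.89 in DCs. All arrays were above background and no groups overlapped. The difference was 1.59 ± 0.12 (3.02-fold, limma adjusted p = 0.0014) in 6G- BM-MDSC and 1.21 ± 0.12 (2.32-fold, adjusted p = 0.0030) in MDSC (conv.), and a second probe gave 1.74 and 1.24, both called. With normexp background correction the MDSC (conv.) difference was 0.74, still called. Of 6 other cDC1 markers tested, 4 and 5 were lower than in DCs and 1, the adhesion gene Cadm1, was higher in both, with a median of -0.59 and -0.67. The difference of Clec9a thus ran against most of that list.

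**Figure D2:**
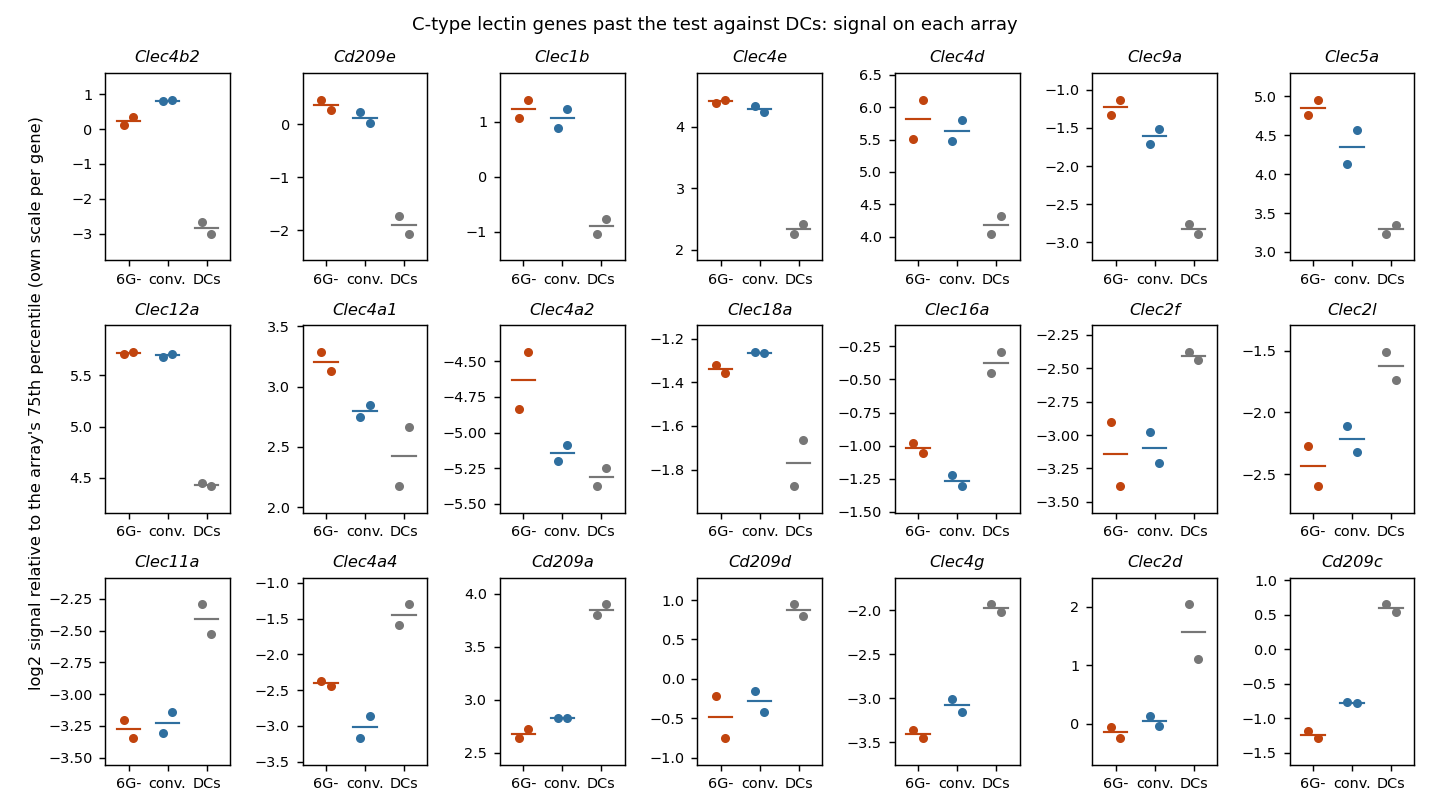
Log2 signal, relative to the array's 75th percentile, of the 21 genes past the test against DCs in at least 1 MDSC group, ordered by the difference of 6G- BM-MDSC from DCs. Each point is 1 array and each line a group mean, with 6G- BM-MDSC left, MDSC (conv.) in the middle and DCs right, and every gene has its own axis. In the first 11 panels all 4 MDSC arrays lie above both DC arrays, and in the last 10 all lie below. The gap is narrow for Clec4a1 and for Clec4a2, whose DC arrays were not well above background.

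The inhibitory receptors did not move as a group. Clec12a, which senses uric acid crystals and restrains neutrophils, was at 5.70 and 5.72 in 6G- BM-MDSC, 5.68 and 5.71 in MDSC (conv.) and 4.45 and 4.42 in DCs. The 4 MDSC arrays lay close together, far above both DC arrays. It was 2.43-fold above DCs in 6G- BM-MDSC (1.28 ± 0.07, limma adjusted p = 0.00059) and 2.39-fold in MDSC (conv.) (1.26 ± 0.07, adjusted p = 0.00065).

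Clec4a4 (DCIR2), an inhibitory receptor of a conventional dendritic cell subset, went the other way. It was at -2.38 and -2.43 in 6G- BM-MDSC, -3.17 and -2.86 in MDSC (conv.) and -1.58 and -1.30 in DCs. It was lower than in DCs by 0.96 ± 0.15 on the log2 scale in 6G- BM-MDSC (limma adjusted p = 0.010) and by 1.57 ± 0.15 in MDSC (conv.) (adjusted p = 0.0027). Without 6G- BM-MDSC replicate 2 the first of these lost its call (-0.93, adjusted p = 0.054).

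Clec4a2 (DCIR1) was dim, at -4.83 and -4.44 in 6G- BM-MDSC, -5.20 and -5.09 in MDSC (conv.) and -5.37 and -5.25 in DCs, and was not well above background on either DC array. It entered the test through the MDSC arrays alone, so its call is no support for a difference. Only a bound could be given, at least 1.13-fold above DCs for 6G- BM-MDSC, and for MDSC (conv.) there was none. The limma adjusted p behind the call, 0.028, comes from DC signals not well above background and does not test this bound. The call did not hold without 6G- BM-MDSC replicate 2 (adjusted p = 0.066), either MDSC (conv.) array (adjusted p = 0.055), DCs replicate 1 (adjusted p = 0.11) or DCs replicate 2 (adjusted p = 0.080), nor with normexp background correction (adjusted p = 0.19).

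Clec4a1 and Clec4a3 are relatives in the same cluster. Clec4a1 was at 3.28 and 3.13 in 6G- BM-MDSC, 2.75 and 2.84 in MDSC (conv.) and 2.18 and 2.67 in DCs, and differed from DCs by 0.78 ± 0.18 (limma adjusted p = 0.029) and 0.38 ± 0.18 (adjusted p = 0.18). The first of these calls was near the threshold: it was lost when any array but DCs replicate 2 was left out, at differences between 0.54 and 0.86. Leaving out an MDSC (conv.) array, which has no part in this difference, left it at 0.78. Without DCs replicate 2 the second passed (0.62, adjusted p = 0.047). Clec4a3 was at 2.13 and 2.03 in 6G- BM-MDSC, 1.74 and 1.86 in MDSC (conv.) and 1.63 and 1.84 in DCs, with differences of 0.35 ± 0.11 (adjusted p = 0.064) and 0.07 ± 0.11.

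Of the 7 Cd209 genes, 5 were tested: Cd209a, Cd209c and Cd209d were lower than in DCs in both MDSC groups, Cd209e was higher and Cd209g did not pass. Cd209a, the gene taken as mouse DC-SIGN, was at 2.64 and 2.72 in 6G- BM-MDSC, 2.83 and 2.83 in MDSC (conv.) and 3.80 and 3.90 in DCs. It was lower than in DCs by 1.17 ± 0.08 (limma adjusted p = 0.0011) and 1.02 ± 0.08 (adjusted p = 0.0016), on the log2 scale, and its second probe by 0.94 and 0.82. Cd209c (SIGNR2) was at -1.19 and -1.29 in 6G- BM-MDSC, -0.77 and -0.77 in MDSC (conv.) and 0.65 and 0.54 in DCs. It was lower by 1.83 ± 0.08 (adjusted p = 0.00039) and 1.36 ± 0.08 (adjusted p = 0.00083). The dimmer probe of Cd209d (SIGNR3) gave -1.41 against DCs in 6G- BM-MDSC (limma adjusted p over probes = 0.024). In MDSC (conv.) it gave -1.1 and was not called (adjusted p over probes = 0.051). The brighter Cd209d probe was at -0.22 and -0.75 in 6G- BM-MDSC, -0.15 and -0.42 in MDSC (conv.) and 0.95 and 0.79 in DCs. It was lower by 1.35 ± 0.21 (adjusted p = 0.0096) and 1.16 ± 0.21 (adjusted p = 0.016). For MDSC (conv.) that call was lost without MDSC (conv.) replicate 2 (-1.02, adjusted p = 0.086), DCs replicate 1 (-1.08, adjusted p = 0.073) or DCs replicate 2 (-1.23, adjusted p = 0.058).

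Cd209e (SIGNR4), which lies between Cd209a and Cd209d on chromosome 8, was at 0.45 and 0.26 in 6G- BM-MDSC, 0.22 and 0.02 in MDSC (conv.) and -1.74 and -2.06 in DCs, with every MDSC array above both DC arrays. This was 4.78-fold (2.26 ± 0.15, limma adjusted p = 0.0011) and 4.06-fold (2.02 ± 0.15, adjusted p = 0.0015) above DCs. Clec4g (LSECtin), an uptake receptor of liver sinusoids at the other end of this cluster, was at -3.37 and -3.45 in 6G- BM-MDSC, -3.01 and -3.15 in MDSC (conv.) and -1.93 and -2.02 in DCs, lower by 1.43 ± 0.09 (adjusted p = 0.00090) and 1.1 ± 0.09 (adjusted p = 0.0018). With normexp background correction Clec4g was lower by 0.76 and 0.63, still called. Cd209g was at -2.79 and -2.51, -2.49 and -2.43, and -2.53 and -2.62 in the 3 groups and did not pass (-0.08 ± 0.12 and 0.11 ± 0.12).

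The probe of Cd209c, the member of this family with the widest difference below DCs, lies in coding sequence (mm9, chr8:3944888-3944947, minus strand) and is printed as an example of how relatives were read apart.
Cd209c probe: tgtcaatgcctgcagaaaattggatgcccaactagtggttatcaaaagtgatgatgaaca
Across 1740 pairs of probes for different members, 2 pairs shared a run of 15 or more bases, and all other pairs shared 12 at most. The run of the Clec2g and Clec2i probes on chromosome 6 is 17 bases (TTACCAAGAGACTCTTC), within an alignment where 47 of 57 bases are the same, so signals of these 2 genes may be mixed. That of Cd209f and Cd209g on chromosome 8 is 16 bases (CAGCACCCAAATAAAA), and Cd209f was not well above background on any array.

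**Figure D3:**
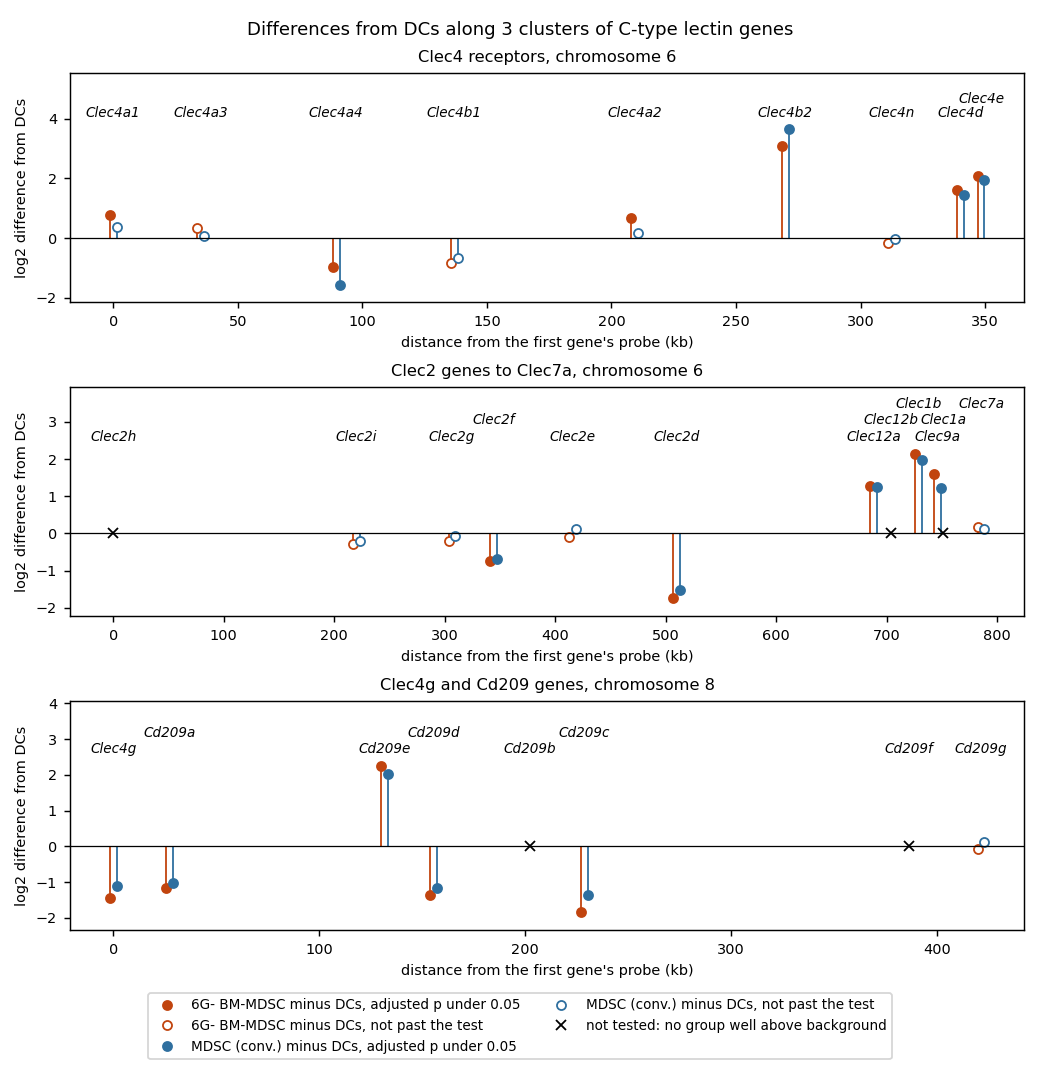
Log2 difference from DCs of 6G- BM-MDSC (orange) and MDSC (conv.) (blue) against the distance in kb from the first probe of each of 3 gene clusters, with filled points past an adjusted p of 0.05 and crosses for genes not tested. Some genes of opposite direction lie next to each other, as Cd209e at 131.8 kb between Cd209a at 27.3 kb and Cd209d at 155.6 kb. Other neighbours go the same way, as Clec4d and Clec4e.

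The members of a cluster did not all share 1 direction, though some called neighbours did. Over all genes, 15% were above DCs and 17.8% below in 6G- BM-MDSC, and 13.4% and 15.8% in MDSC (conv.), so both directions are common across the array. In the Clec4 cluster of chromosome 6 (9 genes over 348.3 kb, all tested), 6G- BM-MDSC had 5 above DCs and 1 below, and MDSC (conv.) had 3 above and 1 below. The 5 include Clec4a2, whose call is no support for a difference. Clec4n, which did not pass, lies between Clec4b2 and Clec4d, which were both higher. In the Clec2 to Clec7a cluster (12 genes over 785.2 kb, 9 tested), 3 were higher and 2 lower in each MDSC group, with the higher ones (Clec12a, Clec1b and Clec9a) at 687.8 to 746.0 kb, toward the Dectin-1 end, and the lower ones (Clec2f and Clec2d) at the Clec2 end. In the Cd209 cluster of chromosome 8 (8 genes over 421.5 kb, 6 tested), 1 was higher and 4 lower in each.

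The ligands of Klrb1 receptors were lower or did not pass. Clec2d (Clr-b), a broadly present ligand that restrains natural killer cells, was at -0.05 and -0.24 in 6G- BM-MDSC, 0.14 and -0.04 in MDSC (conv.) and 2.04 and 1.1 in DCs. The DC arrays stood farther apart than either MDSC pair, but both lay above all MDSC arrays. Clec2d was lower by 1.72 ± 0.32 (limma adjusted p = 0.017) and 1.53 ± 0.32 (adjusted p = 0.025), and a second probe was lower by 1.73 and 1.51. The first call was lost when 6G- BM-MDSC replicate 1 (-1.82, adjusted p = 0.056) or 2 (-1.63, adjusted p = 0.078) was left out, and the second when MDSC (conv.) replicate 1 (-1.62, adjusted p = 0.082) or 2 (-1.43, adjusted p = 0.12) was. Klrb1b, the gene of its receptor, was lower as well, by 0.58 (adjusted p = 0.016) and 0.44 (adjusted p = 0.038).

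Clec2f was at -2.90 and -3.38 in 6G- BM-MDSC, -2.98 and -3.21 in MDSC (conv.) and -2.38 and -2.44 in DCs, lower by 0.73 ± 0.18 (limma adjusted p = 0.037) and 0.69 ± 0.18 (adjusted p = 0.048). This call was near the threshold: for 6G- BM-MDSC it was lost without any array but 6G- BM-MDSC replicate 1 (differences between -0.76 and -0.49, adjusted p between 0.061 and 0.13), and for MDSC (conv.) without any of its own or the DC arrays (between -0.80 and -0.57, adjusted p between 0.094 and 0.19). Clec2l, a relative known from brain, was at -2.27 and -2.59 in 6G- BM-MDSC, -2.11 and -2.32 in MDSC (conv.) and -1.51 and -1.74 in DCs, lower by 0.80 ± 0.16 (adjusted p = 0.019) and 0.59 ± 0.16 (adjusted p = 0.047). Its call too was lost without 6G- BM-MDSC replicate 2 (-0.64, adjusted p = 0.072) or DCs replicate 1 (-0.69, adjusted p = 0.083), and for MDSC (conv.) without any of its own or the DC arrays (between -0.70 and -0.48, adjusted p between 0.086 and 0.19). Clec2g (-0.19 and -0.08), Clec2i (-0.27 and -0.19) and Clec2e (-0.09 and 0.13) did not pass.

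The remaining tested members are secreted proteins, Clec16a and Clec10a. Clec11a, a secreted growth factor of bone-forming and blood progenitor cells, was at -3.20 and -3.35 in 6G- BM-MDSC, -3.31 and -3.14 in MDSC (conv.) and -2.29 and -2.53 in DCs, lower by 0.86 ± 0.12 (limma adjusted p = 0.0080) and 0.82 ± 0.12 (adjusted p = 0.010), the second not called without MDSC (conv.) replicate 1 (-0.73, adjusted p = 0.051). Clec16a was at -0.98 and -1.05 in 6G- BM-MDSC, -1.22 and -1.30 in MDSC (conv.) and -0.45 and -0.29 in DCs, lower by 0.64 ± 0.09 (adjusted p = 0.0077) and 0.89 ± 0.09 (adjusted p = 0.0033). Its other 2 probes were not above background on any array.

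Clec18a, a secreted protein, was at -1.32 and -1.36 in 6G- BM-MDSC, -1.26 and -1.27 in MDSC (conv.) and -1.87 and -1.66 in DCs, 1.35-fold (limma adjusted p = 0.027) and 1.42-fold (adjusted p = 0.019) above DCs. This rests on 1 of 5 probes, since the other 4 were not tested. The call for 6G- BM-MDSC was lost without any array but DCs replicate 2 (difference between 0.33 and 0.45, adjusted p between 0.055 and 0.095), and that for MDSC (conv.) without either of its own arrays or DCs replicate 1 (0.40 to 0.51, adjusted p between 0.066 and 0.086). Clec10a (MGL1), a galactose-type receptor of macrophages and dendritic cells, and Clec3b, the plasma protein tetranectin, did not pass, with -0.11 ± 0.10 and 0.13 ± 0.10 for Clec10a and -0.30 ± 0.22 and -0.23 ± 0.22 for Clec3b.

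Between the 2 MDSC groups no member passed: 0 of 31 were higher in 6G- BM-MDSC than in MDSC (conv.) and 0 lower at an adjusted p of 0.05, where 0.00457% and 0.00915% of all genes were. At an unadjusted p under 0.05, 6 of 31 were higher (19.4%, against 4.18% of all genes) and 3 lower (9.68%, against 6.6%). None of the 31 differed 2-fold, which 1.21% of all genes did. The median size of difference was 0.20 on the log2 scale, against 0.12 over all genes.

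The 6 on the higher side were Clec4a4 (0.61 ± 0.15), Clec4a2 (0.51 ± 0.15), Clec5a (0.50 ± 0.17), Clec9a (0.38 ± 0.12), Clec4a3 (0.28 ± 0.11) and Clec16a (0.25 ± 0.09). Clec4a1 was on the same side (0.41 ± 0.18) with an unadjusted p of 0.072. For Clec5a the value is that of its brightest probe, and its other 2 probes gave 0.04 (unadjusted p = 0.70) and 0.16 (unadjusted p = 0.30) in the same limma fit over probes. The 3 on the lower side were Clec4b2 (-0.59 ± 0.14), Cd209c (-0.47 ± 0.08) and Clec4g (-0.33 ± 0.09). The smallest unadjusted p was 0.0024, for Cd209c, and became 0.26 when adjusted by limma over all genes. For the other 8, the adjusted p lay between 0.33 and 0.46.

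**Figure D4:**
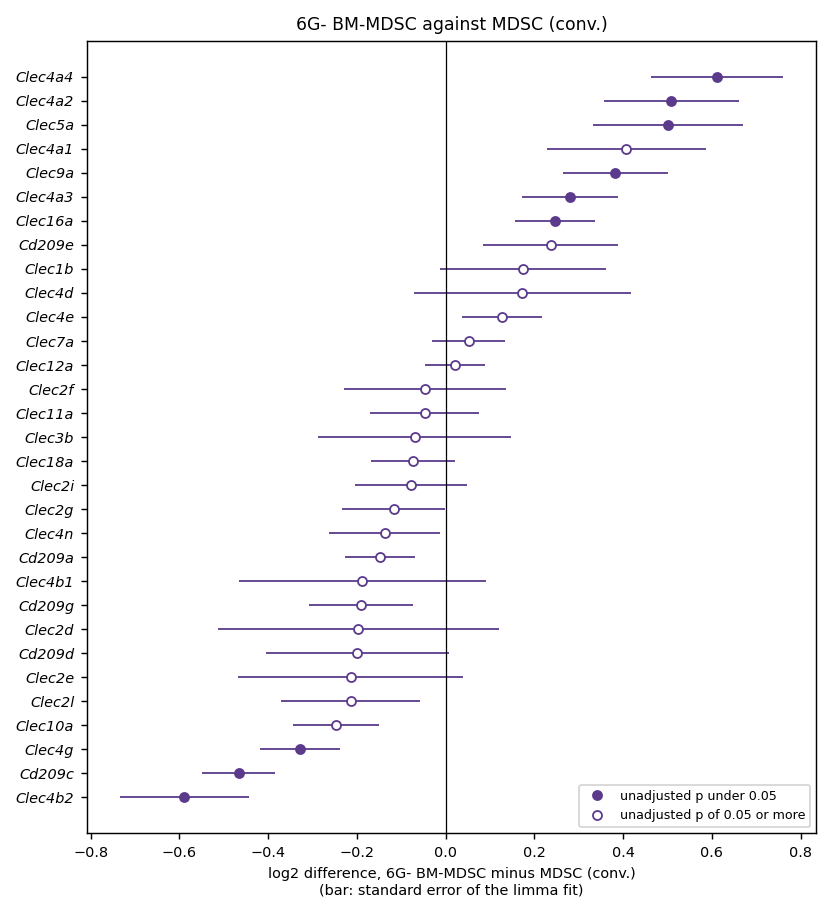
6G- BM-MDSC minus MDSC (conv.) on the log2 scale for the 31 tested genes, as limma estimates with standard errors. Filled points, 6 above 0 and 3 below, have an unadjusted p under 0.05, and none passes after adjustment.

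Genes that carry the receptors' signal moved in both directions. Of 26 signalling genes, 6G- BM-MDSC had 8 above DCs and 6 below, MDSC (conv.) had 5 above and 6 below, and 0 differed between the MDSC groups. Over all genes, 15% were above DCs and 17.8% below in 6G- BM-MDSC, and 13.4% and 15.8% in MDSC (conv.). Movement in both directions was thus no trait of this list. The kinase gene Src was lower than in DCs by 0.96 (limma adjusted p = 0.0049) and 1.34 (adjusted p = 0.0020) on the log2 scale. Hcst, the adaptor DAP10, was higher by 1.27 (adjusted p = 0.0038) and 0.96 (adjusted p = 0.0088). The direct partners of the receptors were looked at in addition. The adaptor Fcer1g was at 7.72 and 7.91 in 6G- BM-MDSC, 7.63 and 7.77 in MDSC (conv.) and 7.38 and 7.47 in DCs, which was 0.39 (adjusted p = 0.046) and 0.28 (adjusted p = 0.11) above DCs. Tyrobp was 0.36 (adjusted p = 0.042) and 0.33 (adjusted p = 0.056) above, Syk did not pass (0.27 and 0.30), and Card9, the adaptor below Syk, was lower by 0.83 (adjusted p = 0.013) and 0.66 (adjusted p = 0.027).

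Of 38 other genes with a C-type lectin-like domain, 25 were tested: 6G- BM-MDSC had 7 above DCs and 9 below, MDSC (conv.) had 6 above and 8 below, and 0 differed between the MDSC groups. The shares over all genes were 15% above and 17.8% below in 6G- BM-MDSC, and 13.4% and 15.8% in MDSC (conv.). The platelet selectin Selp was higher by 2.06 and 1.91. The B cell and myeloid inhibitory receptor Cd72 was lower by 2.56 and 2.03, and Asgr2, a subunit of the liver galactose receptor, by 2.24 and 1.71, all with a limma adjusted p of at most 0.015.

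The 8 genes that were not tested were read by 9 probes at log2 signals between -7.75 and -1.74. Clec12b, Clec2h, Clec3a, Clec4f (a Kupffer cell receptor), Cd209b (SIGNR1 of splenic macrophages) and Cd209f were not well above background on any array. Clec14a, an endothelial protein, and Clec1a were above background on 1 DC array each, at -3.51 on DCs replicate 1 for Clec14a and -1.74 on DCs replicate 2 for Clec1a. The other DC array was at -6.94 for Clec14a and -5.96 for Clec1a, so the pairs of DC arrays did not match and no fold is drawn from them.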

How the data were processed

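RNA from 6G- BM-MDSC, MDSC (conv.) and DCs was labelled with Cy3 and hybridised to 6 one-colour Agilent mouse arrays on 1 slide, 2 per group. The authors read them with Agilent Feature Extraction, version 10.5.1.1 in the submitters' processing notes and 10.7.3.1 in the file headers. The deposited values are background-subtracted, detrended spot intensities on a linear scale, not scaled between arrays, and the deposited value table holds the same intensities, differing by at most 0.005. The number of arrays limits the precision.

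Here the processed intensities were averaged over the spots of a probe, with marked spots left out, and set on a log2 scale minus each array's 75th percentile (R 4.3.3, package data.table, version 1.17.8). The tested probe with the highest mean signal stood for a gene. Both comparisons with DCs and that between the MDSC groups came from a single limma 3.58.1 fit (lmFit, eBayes) with group as its factor, 3 residual and 1.96 prior degrees of freedom, and Benjamini-Hochberg adjustment over 21860 genes at a threshold of 0.05. Probe coordinates are on mm9, as in the files, and upstream sequences are RefSeq's on GRCm38.p6. Figures were drawn with matplotlib 3.10.9 in Python 3.11.15.

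Values on every array are given for members past the test against DCs or with an unadjusted p under 0.05 between the MDSC groups, and for members not well above background in 1 group only. Of other lists, up to 4 genes with the largest difference from DCs are named. Some genes that this would name are not reported here. Ly6g, Klrb1b, Fcer1g, Tyrobp, Syk and Card9, and values on every array of members that did not pass, were added after their values were seen. Members and lists were chosen with earlier results of these data known. Alternatives covered the background correction, normalization, probe filter, choice of probe, marked spots, value table and arrays in the fit. They also covered the replicate block, prior variance, Student's t-test and leaving out each array. The paper names that t-test among its statistics but does not tie it to the arrays, for which it gives fold changes and gene set enrichment.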

Additional observations from a re-analysis of the deposited data

Results flagged for a closer look

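Clec10a was the single tested member whose arrays moved opposite ways in the 2 MDSC groups. It was at 4.45 and 4.26 in 6G- BM-MDSC, both below the 4.46 and 4.47 of DCs, and at 4.65 and 4.55 in MDSC (conv.), both above them. The differences from DCs were -0.11 and 0.13 on the log2 scale, and neither passed in limma (adjusted p = 0.40 and 0.35). The difference between the MDSC groups, -0.25 ± 0.10, had an unadjusted p of 0.051 and a limma adjusted p of 0.46. A second, dimmer Clec10a probe gave 0.01 and 0.10 against DCs. With 2 arrays per group, no array could be set apart from its group.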

How the results depend on the processing

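Apart from Student's t-test, 17 alternatives were run. Of the 19 genes called in both comparisons with DCs, 6 higher ones (Cd209e, Clec12a, Clec1b, Clec4b2, Clec4e and Clec9a) and 4 lower ones (Cd209a, Cd209c, Clec16a and Clec4g) were called in each of them that was run by gene. The count of members higher than DCs lay between 8 and 10 in 6G- BM-MDSC and between 6 and 10 in MDSC (conv.) when 1 array was left out, and the count lower between 6 and 10 and between 6 and 11. A group left with 1 array was assumed to vary like the others. The share of all genes called was not taken for these fits, so the counts show only how far the member calls depend on single arrays. The lowest counts for lower members, 6 each, came without 6G- BM-MDSC replicate 2 and without MDSC (conv.) replicate 2. Between the MDSC groups the counts stayed at 0 higher and 0 lower in each of these 17. With the replicate block, 6G- BM-MDSC had 11 above DCs and 10 below, MDSC (conv.) 9 and 10, and 0 and 0 between the MDSC groups, and no single-gene call changed. Whether the replicate numbers pair samples across groups is not given, and the block rests on these numbers only. Replicate 1 deviations correlated at 0.11 between the MDSC groups, at 0.04 between 6G- BM-MDSC and DCs and at 0.12 between MDSC (conv.) and DCs. With 2 arrays per group these values cannot decide whether samples were paired.

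By Student's t-test, at an unadjusted p under 0.05, 6G- BM-MDSC had 8 members above DCs and 8 below, 9 and 9 in MDSC (conv.), and 2 higher and 2 lower between the MDSC groups. After Benjamini-Hochberg it called 1 higher and 0 lower in 6G- BM-MDSC, 0 and 0 in MDSC (conv.), and 0 and 0 between the MDSC groups. The share of all genes past the t-test was not taken, so these counts are not read as a result about the members. Of the 51 gene differences given, 1 changed sign under 1 alternative: Clec4a2 in MDSC (conv.) against DCs was -0.0543 with the normexp background correction, against 0.17, not called in either case and near background. The cause was not tested. Beside the losses on leaving out an array, 9 calls were lost: those of Clec18a, Clec2f, Clec4a1 and Clec4a2 in 6G- BM-MDSC with only the arrays of the groups compared, of Clec2f in both MDSC groups and Clec2l in MDSC (conv.) with no filter on dim probes, and of Clec4a2 in 6G- BM-MDSC with normexp and with an intensity-dependent prior variance (limma adjusted p between 0.055 and 0.19). Dim members such as Clec4a2 and Clec2e limit what the arrays can show.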
